A study of Mus musculus with 3 samples.

Results

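The receptors described here are the NKG2, CD94 and NKR-P1 family of lectin-like natural killer (NK) cell receptors, together with NKp46 and CD7. The set was a list of 10 gene symbols out of the 55401 genes in the deposited count matrices: Klrc1, Klrc2, Klrk1, Klrd1, Klre1, Klrg1, Klri2, Klrb1c, Ncr1 and Cd7. Of these, 8 encode C-type lectin-like receptors, while Ncr1 and Cd7 encode receptors of the immunoglobulin superfamily. The symbols, and not their values, defined the set, and all 10 were found in every matrix.

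NK cells read a balance of activating and inhibitory receptors to decide whether to kill a target. CD94, encoded by Klrd1, pairs with NKG2A (Klrc1) to inhibit or with NKG2C (Klrc2) to activate, and both pairs bind the non-classical class I molecule Qa-1. NKG2D, encoded by Klrk1, binds stress-induced ligands and signals through the adaptor DAP10 (Hcst), and activated CD8 T cells carry NKG2D and NKG2A as well.

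The cells came from tumours of the mouse melanoma line YUMM1.7 grown under the skin of mice aged 4, 12 or 20 months, with 7 mice per age. Each mouse received 500000 tumour cells, and tumours were taken on day 18. Live cells positive for the leukocyte marker CD45 were sorted and profiled with PIP-seq, a 3′ single-cell RNA method that partitions cells in particle-templated droplets without microfluidics, giving 1 library per age. Strain and sex are not given in the labels, and nothing ties a cell to one mouse. Each age is thus 1 pool without a replicate: the intervals below cover counting error only, no test of age was possible, and a difference between ages cannot be told apart from a difference between libraries.

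The 4-, 12- and 20-month libraries held 14393, 14653 and 14684 cells, with median counts per cell of 6789, 7411 and 6936. The cell type label of the samples reads melanoma, but a count of Ptprc, which encodes CD45, was present in 94.1 to 95.3% of cells, and 6 melanoma markers summed to only 15.6 to 19.1 counts per 1000000 counts (CPM). Between 2 and 4 cell barcodes were shared by any pair of libraries. Cells were clustered without the 10 genes or the related lists, and clusters were named from markers. NK-like cells numbered 2386, 2130 and 1631 (17.7%, 15.5% and 11.9% of named and unnamed immune cells), and CD8 T-like cells numbered 4084, 5682 and 4907. The T cell gene Cd3e was 58.2, 109 and 96.6 CPM in NK-like and 537, 555 and 483 CPM in CD8 T-like cells, and the NK gene Gzma 2182 to 3709 and 193 to 586 CPM. Regulatory T-like cells numbered 735, 629 and 483, and γδ T-like cells 66, 78 and 83. Cells with leading CD4 T-like markers numbered 27, 106 and 47 and also held Cd8a at 249 to 1121 CPM, so this class was mixed and is not described further.

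On the GRCm38 build with the GENCODE M21 annotation, 6 of the 10 genes lie on chromosome 6 within 162.58 kb, at chr6:129577905-129740484, with the related Klrc3 and Klri1 among them. Klre1 (chr6:129577905-129585827) and Klrd1 (chr6:129591782-129598775) are on the plus strand. Klrk1 (chr6:129610323-129623864), Klrc2 (chr6:129647496-129660689), Klrc1 (chr6:129666015-129678973) and Klri2 (chr6:129729041-129740484) are on the minus strand. Klrb1c (chr6:128778485-128789215) and Klrg1 (chr6:122270596-122282882), both on the minus strand, lie further along the same chromosome. Ncr1 is at chr7:4337724-4345164 on the plus strand and Cd7 at chr11:121036747-121039418 on the minus strand.

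RefSeq promoter windows (GRCm38.p6) were found for 6 of the 10 genes, with 9 annotated starts. The 250 bases before the start are shown for an NKG2A gene seen in both NK and CD8 T cells, for the NKG2D gene, and for Ncr1, whose counts were concentrated in NK-like cells. Capitals mark TGTGGT, the core of Runt-family (RUNX) motifs, or its reverse complement ACCACA.
Klrc1, chr6:129678974-129679223, minus strand: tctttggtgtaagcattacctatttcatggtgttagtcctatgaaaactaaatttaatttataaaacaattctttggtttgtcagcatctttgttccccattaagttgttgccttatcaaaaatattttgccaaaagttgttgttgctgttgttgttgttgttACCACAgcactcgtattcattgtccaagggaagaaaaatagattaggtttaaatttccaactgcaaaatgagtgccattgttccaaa
Klrk1, chr6:129623865-129624114, minus strand: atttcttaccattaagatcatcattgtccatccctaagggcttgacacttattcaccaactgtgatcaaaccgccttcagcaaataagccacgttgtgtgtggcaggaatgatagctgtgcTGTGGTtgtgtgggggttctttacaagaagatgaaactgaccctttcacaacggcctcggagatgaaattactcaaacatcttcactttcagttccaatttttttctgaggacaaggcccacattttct
Ncr1, chr7:4337465-4337714, plus strand: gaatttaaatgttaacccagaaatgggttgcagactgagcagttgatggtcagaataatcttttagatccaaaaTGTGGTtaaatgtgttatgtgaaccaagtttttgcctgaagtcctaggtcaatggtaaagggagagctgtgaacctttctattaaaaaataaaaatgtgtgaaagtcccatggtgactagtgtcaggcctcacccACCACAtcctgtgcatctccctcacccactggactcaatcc
The letters TGTGGT were present on one strand or the other in the windows of 6 of 6 genes and in 8 of 9 windows, against 14.0% of all 32851 mouse promoter windows of the same length. The 2 windows each of Klre1, Klrc2 and Ncr1 overlap, so the same Klrc2 and Ncr1 matches fall in both windows of those genes. The Klrc1 and Klrk1 windows above hold 1 match each and the Ncr1 window 2. The T-box core AGGTGT, in 11.8% of all windows, and the AP-1 motif TGACTCA, in 4.46%, were in the windows of 0 of the 6 genes. The Ets core GGAAGT, in 19.7% of all windows, was in that of Klrb1c, and TATAAA, in 12.4%, was in those of Klrc1 and Klrc2. These are matches of letters on either strand and no measure of binding.

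NK-like cells had the highest level of 8 of the 10 genes, the exceptions being Klrc1 and Klrg1. Levels are CPM of counts summed over the cells of a class, and since 3′ counts are not scaled to length, levels are compared between classes and not between genes. Across the 3 libraries, 9 of the 10 genes were higher in NK-like than in CD8 T-like cells in every library, and 6 were at least 2-fold higher in every library, namely Klre1, Klrg1, Klri2, Klrb1c, Ncr1 and Cd7. Among 5624 genes at 20 CPM or more, 1.85% were at least 2-fold higher in NK-like cells in each of the 3 libraries. The classes were made from these same cells, so these differences are a description. None of the 10 was 2-fold higher in CD8 T-like cells, against 1.71% of those genes.

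**Figure D1:**
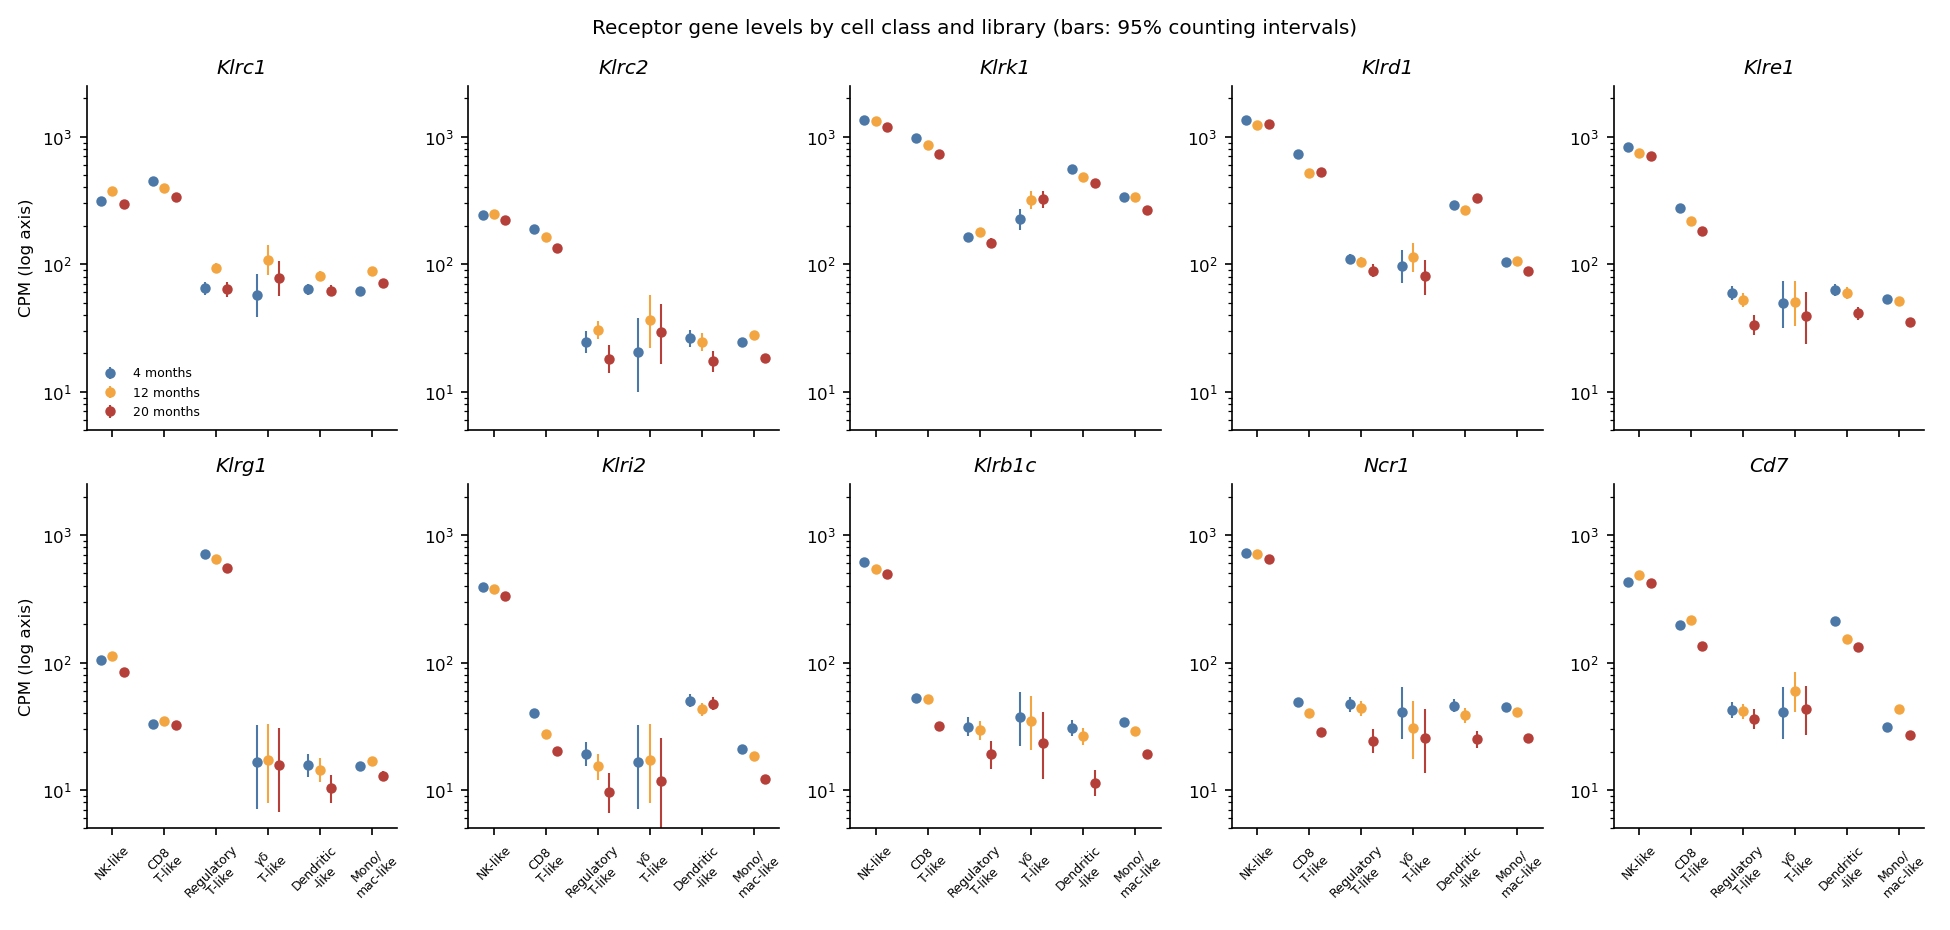
Level of each receptor gene (CPM, log axis) in 6 cell classes, 1 point per library coloured by age, with bars for 95% Poisson intervals. Klri2, Klrb1c and Ncr1 stand far higher in NK-like cells than elsewhere, Klrg1 peaks in regulatory T-like cells, and Klrc1 and Klrk1 are high in both NK-like and CD8 T-like cells.

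Klrc1, encoding the inhibitory NKG2A, was the one receptor gene that was higher in CD8 T-like than in NK-like cells in all 3 libraries. Its level in CD8 T-like cells was 452 CPM at 4 months, 393 at 12 months and 336 at 20 months. In NK-like cells it was 314, 373 and 295 CPM, so that the ranges of the 2 classes over libraries overlapped. The log2 ratio of NK-like to CD8 T-like cells was -0.53 at 4 months but only -0.07 at 12 months and -0.19 at 20 months. Because CD8 T-like cells were also the more numerous class, they held 55.02%, 57.8% and 55.1% of all Klrc1 counts, and NK-like cells 27.95%, 23.8% and 18.5%.

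Klrc2, encoding the activating NKG2C, was instead higher in NK-like cells. Its NK-like levels were 245, 249.8 and 222 CPM, and its CD8 T-like levels were 189, 162 and 133 CPM, with no overlap. The count ratio of Klrc1 to Klrc2 was therefore lower in NK-like cells, at 1.28, 1.49 and 1.33, than in CD8 T-like cells, at 2.39, 2.42 and 2.52, in every library. The 2 genes are near-identical in part: 17.1% of 100-base windows in the last 500 bases of Klrc1 transcripts also occur in Klrc2, so reads could be split between them by the counting, which is not given in the sources used here.

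Klrd1, encoding the shared partner CD94, was 1353, 1226 and 1253 CPM in NK-like cells and 730.2, 518 and 533 CPM in CD8 T-like cells. It was therefore 0.89 to 1.24 higher on the log2 scale in NK-like cells. In cells thinned to 3000 counts, a Klrd1 count was present in 95.3%, 94.9% and 94.2% of NK-like cells and in 78.9%, 70.3% and 68.6% of CD8 T-like cells. Monocyte/macrophage-like cells, taken as a class that should lack these receptors, showed 27.2%, 26.6% and 21.8%. No cell was too shallow to be thinned. Median counts before thinning were 7031 to 7753 in NK-like, 5397.5 to 6271 in CD8 T-like and 7788.5 to 8829 in monocyte/macrophage-like cells. Without thinning the Klrd1 shares were 98.7 to 99.1%, 85.3 to 90.96% and 48.8 to 58.7% in the same 3 classes.

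Counts of Klrc1 and Klrd1 met in the same cell about as often as the product of the single shares in NK-like cells and slightly more often in CD8 T-like cells. At 4 months both were found in 52.0% of thinned NK-like cells, against a product of 51.9%. In CD8 T-like cells they met in 54.3%, 46.02% and 41.6% of cells, against products of 51.4%, 43.8% and 37.6%. The genes of the inhibitory and the activating partner also met in single cells: Klrc1 and Klrc2 were both counted in 29.5%, 32.5% and 26.6% of NK-like cells (products 27.7%, 31.3% and 24.6%). In CD8 T-like cells the excess was larger, at 32.2%, 26.6% and 21.1% against products of 27.2%, 22.5% and 16.4%. The part of shared sequence between Klrc1 and Klrc2 and of free RNA in these joint counts was not tested.

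Klrk1, encoding NKG2D, was 1361, 1318 and 1194 CPM in NK-like cells. In CD8 T-like cells it was 972, 859.6 and 731 CPM, below every NK-like library. A count was present in 96.9%, 96.9% and 96.1% of thinned NK-like cells and in 86.4%, 84.4% and 77.3% of thinned CD8 T-like cells, and unthinned in 99.5 to 99.7% and 89.7 to 95.4%. The background class was high for this gene. Monocyte/macrophage-like cells had 339, 334 and 268 CPM and a count in 50.9 to 59.9% of thinned cells (81.4 to 90.2% unthinned). This level was above the 163, 180.1 and 147 CPM of regulatory T-like cells. Conventional dendritic cell-like cells had 558, 484 and 435 CPM, higher again in each library.

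The adaptor genes of these receptors differed between the classes. Hcst, encoding DAP10, was 456, 456 and 468 CPM in NK-like cells and 675, 679 and 719 CPM in CD8 T-like cells, so it was higher in the class with less Klrk1, and it was 106.5, 129.8 and 139.9 CPM in monocyte/macrophage-like cells. Tyrobp, encoding DAP12, the adaptor of NKG2C and several other activating receptors, was 2705, 2533 and 2356 CPM in NK-like cells and 318, 259 and 247 CPM in CD8 T-like cells. Tyrobp was 2231, 1958 and 2017 CPM in monocyte/macrophage-like cells, whose gene Lyz2 was at 5483 to 6560 CPM there and 556 to 675 CPM in CD8 T-like cells, so Tyrobp in CD8 T-like cells is not shown to be above free RNA. Both Klrk1 and Hcst were counted in 70.4%, 70.0% and 71.8% of NK-like cells, against products of 70.3%, 69.8% and 71.3%.

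Klre1 encodes a lectin-like receptor that pairs with the products of Klri1 and Klri2. Klre1 was 838, 742 and 701 CPM in NK-like cells and 276, 217 and 183 CPM in CD8 T-like cells, a log2 difference of 1.60, 1.78 and 1.93. Klri2 was much more restricted, with 394, 376 and 336 CPM in NK-like cells and 40.02, 27.5 and 20.3 CPM in CD8 T-like cells. That made it 9.84-, 13.6- and 16.6-fold higher in NK-like cells. Conventional dendritic cell-like cells held Klri2 at 50.4, 43.0 and 47.7 CPM, above background and above the CD8 T-like level in each library. The other partner, Klri1, stayed at 3 to 5 CPM in NK-like cells. Klre1 and Klri2 counts met in 50.04%, 47.8% and 45.1% of NK-like cells, against products of 48.4%, 46.9% and 44.5%.

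Ncr1 and Klrb1c, the genes of the NK cell identity markers NKp46 and NK1.1 (NKR-P1C), were, like Klri2, concentrated in NK-like cells. Ncr1 was 728, 713 and 648 CPM in NK-like cells, and these cells held 77.6%, 75.4% and 76.0% of all its counts. In CD8 T-like cells it was 49.2, 40.4 and 28.8 CPM, not above the 44.6, 40.96 and 25.8 CPM of monocyte/macrophage-like cells beyond counting error in all 3 libraries. No other named class exceeded that background for Ncr1 in all 3 libraries. An unnamed cluster of 310 cells with Cd3e, from the T cell clustering, held Ncr1 at 339 CPM. Its scores for CD8 T-like and NK-like markers were nearly equal, at 0.63 and 0.61, so it does not show Ncr1 in T cells. Klrb1c was 609.7, 538 and 495 CPM in NK-like cells and 52.7, 51.98 and 31.9 CPM in CD8 T-like cells, above the 34.3, 28.9 and 19.2 CPM of the background class. It was 11.6-, 10.3- and 15.5-fold higher in NK-like cells. Klrb1c overlaps Gm44511 on the same strand over 8931 bases, and 10.5% of the windows at its 3′ end are shared with Gm44511 or Klrb1a, so its counts may be partly split. Gm44511 itself was 242, 248 and 251 CPM in NK-like cells and 108, 110 and 107 CPM in CD8 T-like cells.

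After thinning, an Ncr1 count was present in 83.1%, 84.7% and 81.7% of NK-like cells, against 11.8%, 11.6% and 6.28% of monocyte/macrophage-like cells, and unthinned in 94.5 to 96.1% and 18.4 to 31.1%. A Klrb1c count was present in 77.2%, 73.8% and 70.3% of thinned NK-like cells, against 10.5%, 7.65% and 5.28%, and unthinned in 89.4 to 91.6% and 14.6 to 24.2%. Thinned CD8 T-like cells showed 13.4%, 11.0% and 7.48% for Ncr1, at about the background share in each library. The background shares of both genes were themselves lowest in the 20-month library, where NK-like cells were also the smallest share of cells.

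**Figure D2:**
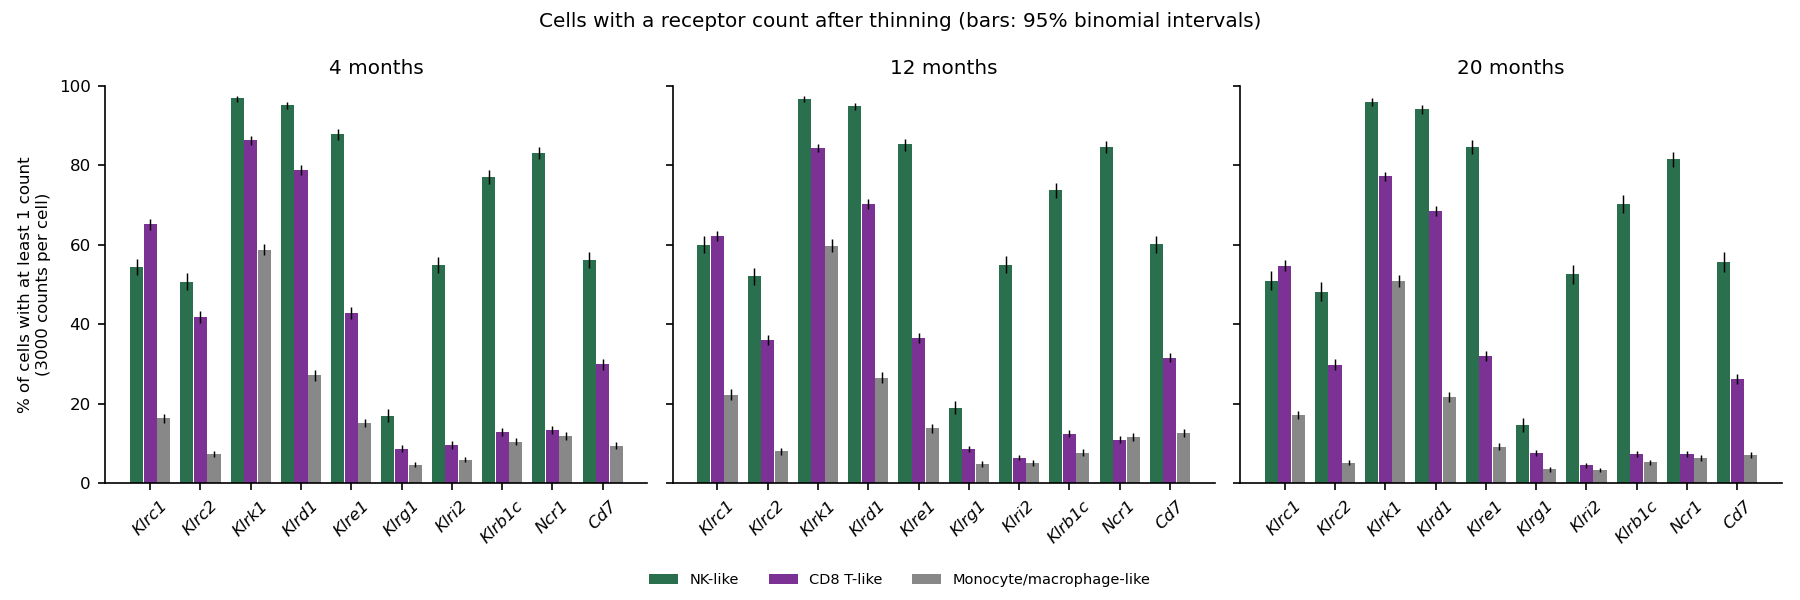
Share of cells (%) with at least 1 count of each receptor gene after thinning every cell to 3000 counts, in NK-like, CD8 T-like and monocyte/macrophage-like cells of each library, with exact 95% binomial intervals. The Ncr1 and Klri2 bars of CD8 T-like cells lie near those of the macrophage background, whereas the Klrc1 bars of CD8 T-like cells stand slightly above those of NK-like cells in all 3 libraries.

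Klrg1, encoding an inhibitory receptor for cadherins that marks terminally differentiated lymphocytes, had a different order. It was highest in regulatory T-like cells, at 709, 652 and 550 CPM, followed by NK-like cells at 104, 113 and 84.5 CPM and CD8 T-like cells at 32.9, 34.7 and 32.2 CPM, with no overlap between neighbours. The background class had 15.4, 16.9 and 12.96 CPM. Regulatory T-like cells, with Foxp3 at 168 to 235 CPM, made up a small share of cells but held 45.3%, 41.3% and 38.6% of Klrg1 counts. A Klrg1 count was present in 62.7%, 60.7% and 52.8% of thinned regulatory T-like cells, 17.1%, 19.0% and 14.6% of NK-like cells and 4.63%, 4.78% and 3.51% of the background class, and unthinned in 64.6 to 75.5%, 23.7 to 34.3% and 9.99 to 14.5%. Klrg1 was the only one of the 10 genes above background in regulatory T-like cells, and none was above background in all 3 libraries in γδ T-like cells, where Trdc was 1513 to 2567 CPM. For Klrk1, however, the background class was itself high. Klrk1 in γδ T-like cells was 225, 320 and 323 CPM, above regulatory T-like cells beyond counting error in every library. The background class thus cannot show whether γδ T-like cells lacked Klrk1.

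Cd7, encoding a small receptor of NK and T cells, was 431, 483 and 424 CPM in NK-like cells and 199, 214 and 136 CPM in CD8 T-like cells. Conventional dendritic cell-like cells had 211, 154 and 133 CPM, overlapping the CD8 T-like range, against 31.2, 43.3 and 27.03 CPM in monocyte/macrophage-like cells. An antisense gene, Gm11775, covers all of Cd7, and whether strand was used in counting is not given in the sources used here. Klrd1 was also above the background class in conventional dendritic cell-like cells, at 292, 265 and 333 CPM against 104, 107 and 88.6 CPM.

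Among NK-like sub-clusters, Klrg1 varied most. A sub-cluster of 177 cells led by the granzyme genes Gzmf, Gzmd and Gzmg had Klrg1 at 372 CPM over all ages, against 31.1 to 121 CPM in the other sub-clusters, and the highest Klrd1, at 1548 CPM. Klrb1c was low in the sub-clusters of dividing cells. It was 309 and 313 CPM in those led by histone genes and 383 CPM in that led by the replication genes Mcm7 and Ung, against 693 CPM in the highest. Small sub-clusters of 62 and 149 cells, which also held Cd3e at 398 and 258 CPM, were lower still, with Klrb1c at 232 and 137 CPM. Klrk1 was highest, at 1642 CPM, in the sub-cluster led by the chemokine gene Cxcl10.

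Among the 7 CD8 T-like sub-clusters with at least 50 cells (another held 28 cells and is not described), Klrk1 and Klrc1 peaked in the same cells and Klrb1c in others. The sub-cluster led by Ifitm1, with Gzma at 2621 CPM, had the highest Klrk1 (1340 CPM) and Klrc1 (650 CPM). The sub-cluster led by Dapl1, Nsg2 and the lymph node homing gene Ccr7 had Klrk1 at only 662 CPM and the lowest Klrc1, 272 CPM, but the highest Klrb1c, 85.7 CPM. The highest Klrd1 (864 CPM), Klre1 (313 CPM) and Cd7 (288 CPM) were in the sub-cluster led by the cytokine genes Ccl1, Ccl3 and Ifng. The make-up of the class differed between libraries: the Ifitm1 sub-cluster held 446, 246 and 111 cells at 4, 12 and 20 months, and that led by Trgc2, Gzmk and Tox, where Klrk1 was 657 CPM, held 159, 290 and 796.

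**Figure D3:**
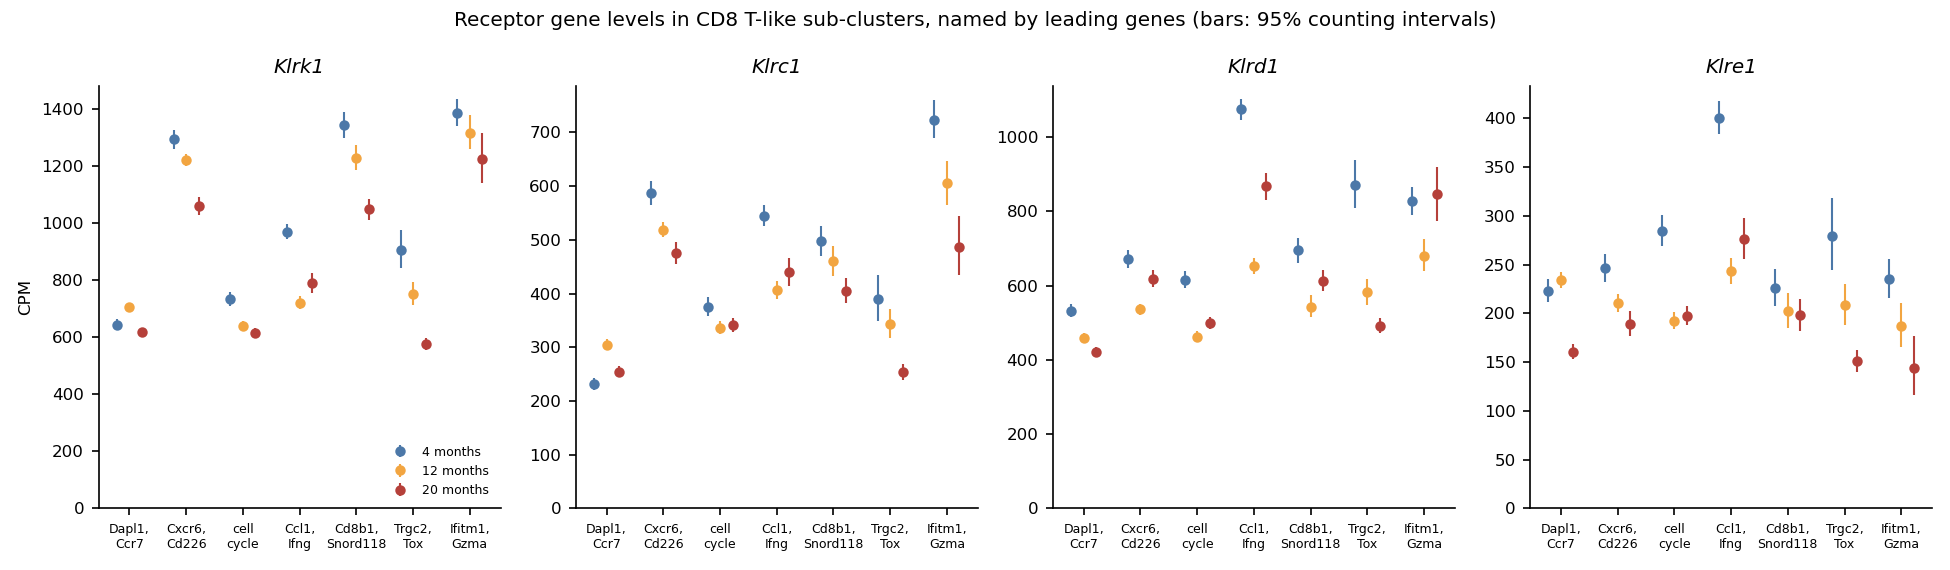
Level (CPM) of Klrk1, Klrc1, Klrd1 and Klre1 in the 7 CD8 T-like sub-clusters of at least 50 cells, named by leading genes, 1 point per library with 95% Poisson intervals. Over all ages Klrk1 is 662 CPM in the Dapl1 and Ccr7 sub-cluster and 1340 CPM in the Ifitm1 sub-cluster, and the 20-month point is the lowest of the 3 for Klrk1 in 6 of 7 sub-clusters.

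With age, receptor levels in NK-like cells stayed within 1.5-fold of those at 4 months. At 12 months the log2 ratios to 4 months ranged from -0.18 for Klrb1c to 0.25 for Klrc1, with a median of -0.04 over the 10 genes. At 20 months they ranged from -0.30 for Klrg1 and Klrb1c to -0.02 for Cd7, with a median of -0.18, and 9 of 10 counting intervals lay below 0. None of the 10 genes was past 1.5-fold at either age. The background among 5594 genes was 1.56% higher and 0.411% lower at 12 months, and 1.56% higher and 0.322% lower at 20 months. The median of all these genes was -0.02 at 12 months and -0.07 at 20 months. The 20-month NK-like library was thus the lowest of the 3 for 9 of the 10 genes, with Klrd1 the exception, by at most 1.23-fold against 4 months.

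In CD8 T-like cells the receptor genes were lower in the older libraries by more. At 12 months the median log2 ratio was -0.21 (range -0.54 for Klri2 to 0.11 for Cd7), 7 of 10 intervals lay below 0, and none of the 10 was past 1.5-fold, against 1.65% of 5632 genes higher and 0.497% lower. In 7 alternatives Klri2, or Klri2 and Klrd1, were past it at 12 months. At 20 months the median was -0.53, and 9 of 10 intervals lay below 0, all but that of Klrg1. At 20 months 4 of the 10 genes, Klre1, Klri2, Klrb1c and Ncr1, were lower by at least 1.5-fold, against 0.977% of genes lower and 1.74% higher. The median of all tested genes was -0.02 and -0.09 at the 2 ages.

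Of the receptors well above background in CD8 T-like cells, Klre1 was lower by 1.504-fold at 20 months (log2 -0.59, interval -0.64 to -0.54), from the 276 to the 183 CPM given above. Cd7 was lower by 1.47-fold, Klrc2 by 1.42-fold, Klrd1 by 1.37-fold, Klrc1 by 1.35-fold and Klrk1 by 1.33-fold. Klrd1 was already 1.41-fold lower at 12 months, slightly more than at 20 months, whereas Cd7 was slightly higher at 12 months. Klrg1 had nearly equal levels in the 3 libraries, with log2 ratios of 0.07 and -0.03.

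The largest ratios were in genes near background. Klri2 was lower by 1.97-fold, Ncr1 by 1.71-fold and Klrb1c by 1.65-fold in CD8 T-like cells at 20 months. In monocyte/macrophage-like cells of the same library the log2 ratios of Klri2, Ncr1 and Klrb1c were -0.79, -0.79 and -0.84, beside -0.98, -0.77 and -0.73 in CD8 T-like cells. Regulatory T-like cells also had 4 of the 10 genes lower by at least 1.5-fold at 20 months, Klre1, Klrb1c and Ncr1 among the 9 that reached 20 CPM, against 2.15% of 6056 genes lower and 3.09% higher, and Klri2 below that level. At 12 months none was past it in regulatory T-like cells (2.46% of genes higher, 1.57% lower). The background class likewise had Klre1, Klrb1c and Ncr1 lower among the 8 at 20 CPM, against 1.88% of 6118 genes lower and 2.71% higher, and Klri2 below that level. None was past it at 12 months (2.78% higher, 1.13% lower). In the few γδ T-like cells only 2 genes had 30 counts in both libraries, and neither was past 1.5-fold at 12 months or 20 months. Background shares, which have no such count limit, were 11.2% higher and 11.1% lower at 12 months. At 20 months they were 11.2% higher and 13.8% lower. Of the 8 receptor genes at 20 CPM, Klrc1 and Klrc2 were at least 1.5-fold higher at 12 months (log2 0.90 and 0.83). Klrb1c and Ncr1 were lower by that fold at 20 months (-0.66 and -0.70). Each had under 30 counts in at least 1 of the 2 libraries, and only the Klrc1 interval lay clear of 0. The share of NK-like cells and the summed level of 11 NK markers in CD8 T-like cells (1879, 1569 and 1339 CPM, none at 0) were also lowest at 20 months. Single markers differed there: Gzma was 586, 295 and 193 CPM and Prf1 122, 107 and 101 CPM, but Eomes rose, at 33.1, 47.8 and 56.8 CPM. The same sum was also lowest at 20 months within NK-like cells, at 8720, 7509 and 6661 CPM. With the CPM of monocyte/macrophage-like cells subtracted, the CD8 T-like log2 ratios at 20 months were -0.58 for Klre1, -0.56 for Klrc1, -0.45 for Klrk1 and -0.63 for Cd7, about as large as before or larger. They were -1.22 for Klri2, -0.61 for Ncr1 and -0.53 for Klrb1c. For Klrk1 the subtracted class was itself high, as given above. Whether free RNA or stray NK cells add to these ratios beyond that subtraction was not tested.

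**Figure D4:**
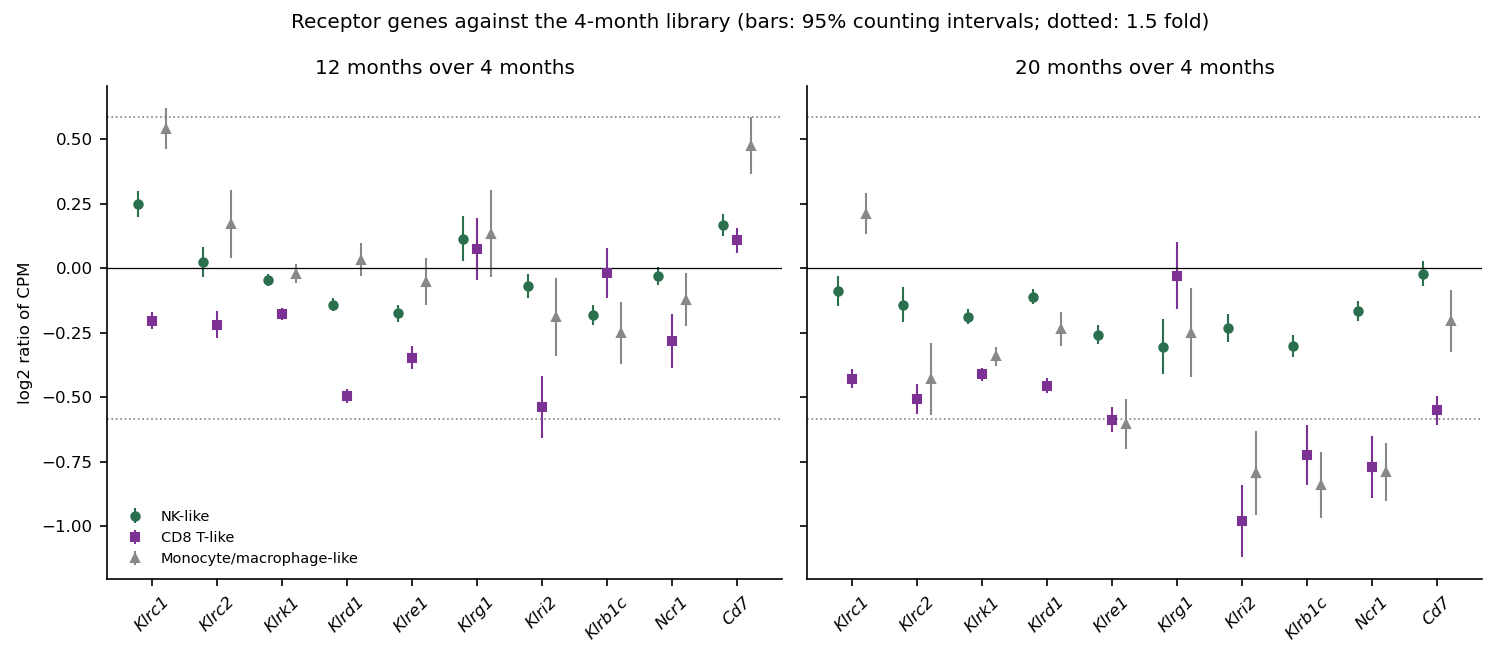
Log2 ratio of each receptor gene in the 12-month (left) and 20-month (right) library to the 4-month library, for NK-like, CD8 T-like and monocyte/macrophage-like cells, with 95% counting intervals and dotted lines at 1.5-fold. At 20 months the CD8 T-like points lie below the NK-like points for 9 of 10 genes, and the Klri2, Klrb1c and Ncr1 points of CD8 T-like and monocyte/macrophage-like cells lie close together.

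The lower levels in CD8 T-like cells at 20 months were also found within most sub-clusters. The sub-clusters come from the same libraries, so they are not replicates and share any difference between libraries. Klri2 and Ncr1 lay near background in this class, as given above. The ratio of 20 to 4 months was below 0 on the log2 scale in 7 of 7 CD8 T-like sub-clusters for Klrk1, Klrc2, Klre1, Klri2 and Ncr1, and in 6 of 7 for Klrc1, Klrd1, Klrb1c and Cd7. For Klrk1 the sub-cluster ratios ran from -0.66 to -0.06 with a median of -0.29, smaller than the -0.41 of the whole class. For Klrc1 the exception was the Dapl1 and Ccr7 sub-cluster, at 231.5 CPM at 4 months, 305 at 12 months and 254.7 at 20 months. Klrb1c in that sub-cluster was 104.7, 99.9 and 56.0 CPM. In another sub-cluster Klrb1c was higher at 20 months, with a log2 ratio of 0.91 and its interval above 0.

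The shares of CD8 T-like cells with a count were likewise lowest at 20 months. In thinned CD8 T-like cells a Klrc1 count was present in 65.2%, 62.2% and 54.8%, a Klrc2 count in 41.8%, 36.1% and 29.9%, and a Klre1 count in 42.9%, 36.5% and 31.995%. The unthinned shares were 80.9%, 83.2% and 74.4% for Klrc1, 60.4%, 60.0% and 49.5% for Klrc2 and 58.2%, 56.7% and 47.8% for Klre1. In monocyte/macrophage-like cells the thinned shares were 16.4%, 22.3% and 17.2% for Klrc1, 7.36%, 8.05% and 5.26% for Klrc2 and 15.2%, 13.9% and 9.25% for Klre1. The CD8 T-like shares of all 3 genes were thus well above background in every library.

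Among the other genes of these pathways, the adaptors (Hcst, Tyrobp, Fcer1g and Cd247) had 0 of 4 past 1.5-fold at 20 months in either class. Over all genes, 0.977% were lower and 1.74% higher in CD8 T-like cells, and 0.322% and 1.56% in NK-like cells. In CD8 T-like cells Hcst had a log2 ratio of 0.09 and Tyrobp -0.36. Of 20 other lectin-like receptor genes, mainly the Ly49 (Klra) receptors for class I molecules, 9 reached 20 CPM in CD8 T-like cells. At 20 months 5 of these were lower by at least 1.5-fold, Klra1, Klra4, Klra7, Klra8 and Klra9, with a median of -0.88 over the 9 and a share of 0.977% over all genes, as given above. Monocyte/macrophage-like cells also had 4 of 8 lower (median -0.60), against 1.88% of all genes, and 1 higher, Klra17, against 2.71%. Regulatory T-like cells had 4 of 6 lower (median -1.06), against 2.15% of all genes. The lower genes were Klra4, Klra7, Klra8 and Klra13-ps in both, and the part of free RNA in these ratios was not tested. At 12 months 3 of the 9 in CD8 T-like cells were higher by that fold, Klra1, Klra3 and Klra13-ps, against 1.65% of all genes. Klra7 in CD8 T-like cells was 112, 165 and 57.9 CPM. In NK-like cells 13 of the 20 reached 20 CPM, 0 were past 1.5-fold, and the median at 20 months was -0.17. The Ly49 genes are close copies of each other, so counts could be split between them.

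Of 14 proximal signalling genes, 11 reached 20 CPM in CD8 T-like cells and 1 was past 1.5-fold at 20 months: Ptpn6, encoding the phosphatase SHP-1 recruited by inhibitory receptors, from 191 to 127 CPM. Of 12 other NK cell receptor genes, 1 was past it, Cd244a, which encodes the receptor 2B4, from 73.5 to 41.9 CPM. Over all genes of CD8 T-like cells, 0.977% were lower and 1.74% higher by that fold. In NK-like cells 0 of the 11 signalling genes and 0 of the 11 other receptor genes that reached 20 CPM were past 1.5-fold. The shares of all genes there at 20 months were 0.322% lower and 1.56% higher. Of 9 ligand genes, 4 reached 20 CPM in CD8 T-like cells with 0 past the fold. H2-T23, encoding the Qa-1 ligand of the CD94 pairs, was 653, 593 and 617 CPM in CD8 T-like cells and 599, 589 and 569 CPM in NK-like cells.

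The genes with the most similar pattern were sought over 15 profiles (5 classes in 3 libraries, 7704 genes, Pearson correlation of log2(CPM + 10)). The profiles of a class share its cell type and those of a library share its depth, so these are descriptions. Nearest to Klrc1 were Fasl (r = 0.993), Apol7b (0.988) and Cd160 (0.983), and nearest to Ncr1 were Gzmc, Klra4 and Klrb1f (0.998, 0.998 and 0.997). Klrb1c was nearest to Klra9 (0.996), Spry2 (0.992) and Gm15518 (0.990), Klrk1 to Abcb1b (0.969), Nedd4 (0.961) and Ftsj3 (0.960), and Klrd1 to Nedd4 (0.979), Prkacb (0.966) and Chsy1 (0.959). Klrg1 was nearest to Myl4 (0.986), Gm6637 (0.982) and Hacd3 (0.976), and Cd7 to Polr2l (0.967), Sub1 (0.954) and Arsb (0.952). Among the 10 genes themselves, the closest pairs were Klrb1c with Ncr1 (0.987) and Klrc1 with Klrc2 (0.971), and every pair with Klrg1 was at or below 0.190.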

How the data were processed

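The authors deposited whole-number counts per gene and cell barcode for each library, made per the submitters' processing notes with STAR 2.7.10a on GRCm38. The counting settings, the annotation, strand use and any correction of counts are not given in the sources used here. All further steps were computed from these counts. Cells needed 500 counts and at most 15% mitochondrial counts, which removed 2 cells, and the 6% of each library with the highest Scrublet score were removed as likely doublets, leaving 13528, 13774 and 13803 cells. Total counts were 110371225, 127850782 and 119873564. The 3 libraries were clustered together (scanpy 1.11.5, leidenalg 0.10.2, 2000 variable genes, 30 components, 15 neighbours, resolution 1.0) without the 10 genes and the listed genes, 68 in all. T and NK cells were clustered again without 6 further genes found almost only in 1 library, a step chosen after seeing the data. Clusters were named from 117 markers by their mean marker score (at least 0.4, ahead of the next class by 0.1, with at least 3 markers detected in 10% of cells), and 3 marker symbols were not matched. A cluster that met no name stayed unnamed. Per library, 0.824% to 4.79% of immune cells were in unnamed T clusters.

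Counts were summed over the cells of a class and library and divided by their total to give CPM. Poisson and binomial intervals are exact at 95% and cover counting error only, since each age is 1 library. No p-value was computed: a gene is called past a fold by size alone. Background shares cover genes at 20 CPM or more in the class mean, and genes needed 30 counts in both libraries. Above background means that the counting interval lay above that of monocyte/macrophage-like cells in every library. That class includes 2 clusters, of 86 and 62 cells, that were first grouped with T cells. Shares of cells were taken after thinning each cell to 3000 counts, with 2000 counts and no thinning as alternatives. The interval code was tested on simulated data. Promoter windows and motifs came from RefSeq tables, and positions from the annotation.

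The genes named are the 10 receptors, the members of 5 fixed lists, and the 3 genes most like each of 7 receptors. Other genes were chosen after their values were seen, as were the leading genes of sub-clusters. The 10 genes and the lists were chosen with earlier results of these data known. Alternatives covered doublet removal, resolutions 0.5 and 1.5, separate clustering of libraries, keeping the listed genes or leaving out library-specific genes in clustering, gated cells, means over cells, centring, background subtraction, 5000 counts per cell, no count minimum and leaving out 1 CD8 T-like sub-cluster.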

Additional observations from a re-analysis of the deposited data

Results flagged for a closer look

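Klrc1 was picked out because its counting intervals lay on opposite sides of 0 in 2 classes. Its log2 ratio of the 12-month to the 4-month library was 0.25 in NK-like cells and -0.20 in CD8 T-like cells. The difference between the classes was not tested, since each age has 1 library. In monocyte/macrophage-like cells of the same libraries the ratio was 0.54, and with the CPM of those cells subtracted the ratio was 0.17 in NK-like and -0.36 in CD8 T-like cells. Within NK-like sub-clusters the ratio was above 0 in 8 of 8, and within CD8 T-like sub-clusters it was below 0 in 6 of 7, the exception being the Dapl1 and Ccr7 sub-cluster at 0.40.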

How the results depend on the processing

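No paired analysis was possible because each age is 1 library and the labels give no replicate numbers. For the same reason no library could be left out of a ratio. The median log2 ratio of the 10 genes kept its sign under every alternative run, from -0.06 to -0.03 (NK-like, 12 over 4 months), -0.19 to -0.10 (NK-like, 20 over 4), -0.32 to -0.13 (CD8 T-like, 12 over 4) and -0.61 to -0.44 (CD8 T-like, 20 over 4). Centring on the median gene gave -0.10 for NK-like and -0.44 for CD8 T-like cells at 20 months. Clustering each library separately gave -0.61 for CD8 T-like cells at 20 months, past 1.5-fold. The CD8 T-like median at 12 months, -0.21 as reported, was -0.28 with no doublet removal, -0.28 at resolution 0.5, -0.27 at resolution 1.5, -0.31 with libraries clustered separately and -0.30 with the listed genes kept in clustering. It was -0.32 with library-specific genes kept in the T clustering (an alternative chosen after seeing the data), -0.13 in cells with at least 5000 counts, -0.29 with macrophage CPM subtracted and -0.28 without the Dapl1, Ccr7 and Lef1 sub-cluster. The cause of these shifts was not tested. The count of receptor genes at least 1.5-fold lower in CD8 T-like cells at 20 months, 4 as reported, ran from 2 at resolution 0.5 to 6 with libraries clustered separately, and Klri2 was among them in every setting. At 12 months the count, 0 as reported, was 1 (Klri2) with no doublet removal, at resolution 1.5, with the listed genes kept and without the Dapl1 sub-cluster. It was 2 (Klrd1 and Klri2) with separate clustering, library-specific genes kept or macrophage CPM subtracted. Klre1, at 1.504-fold, lay at the limit. Single genes kept the sign of their age ratio in 251 of 260 values for NK-like and 262 of 279 for CD8 T-like cells, and the ratio of NK-like to CD8 T-like cells kept its sign in 139 of 139. Of the age ratios, 32 for NK-like and 129 for CD8 T-like cells lay outside the counting interval of the reported value. Of the ratios between the classes, 18 lay more than 1 standard deviation, taken over the 3 libraries, from the reported mean. Background subtraction gave no 12-month value for Ncr1 in CD8 T-like cells. In the gated alternative, NK-like cells with no Cd3d, Cd3e or Cd3g count numbered only 380, 81 and 129. Ncr1 in CD8 T-like cells was not above macrophages beyond counting error in every library, which limits what can be said of it there.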

Other observations

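Receptor genes were also present in conventional dendritic cell-like cells, and not evenly. After the values were seen, cells with a Cd209a count but no Xcr1 or Clec9a count were set against those with an Xcr1 or Clec9a count but no Cd209a count. These are markers of the dendritic cell subsets that mainly prime CD4 and CD8 T cells respectively. Most of the 684, 595 and 693 cells of the class were in neither group and were left out. Cd7 was 369.8, 342 and 375 CPM in the 159, 102 and 77 Cd209a cells at 4, 12 and 20 months, against 114, 98.0 and 59.5 CPM in the 116, 110 and 180 Xcr1 or Clec9a cells. Klrd1 was 338, 419 and 452 CPM in the former and 167, 132 and 171 CPM in the latter. Both genes were thus higher in the Cd209a cells in every library, with no overlap.

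Klrh1, encoding another lectin-like receptor, was the gene of the lists with the largest age ratio in CD8 T-like cells, at 30.1, 5.49 and 2.49 CPM. It was found mainly in the sub-cluster led by Ccl1, Ccl3 and Ifng, at 103.8, 9.8 and 13.2 CPM. In NK-like cells it was at most 2.33 CPM. It was below 20 CPM in the mean of the 3 libraries and was singled out after its values were seen.

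An unnamed T cluster led by Gzmm and Trdc held 639 cells, 587 of them from the 20-month library. It scored highest for CD8 T-like markers (0.65, next class 0.34). Its 10 leading genes held a γδ T-like marker and no CD8 T-like one, so it stayed unnamed and outside the CD8 T-like ratios. Its Klrk1 level was 736 CPM, Klrc1 323 CPM, Klrd1 354 CPM and Klrb1c 32.5 CPM. Another unnamed cluster from the T cell clustering, led by Eya4 and Dock1 with 310 cells, held Ncr1 at 339 CPM and Klrb1c at 283 CPM beside Cd3e at 321 CPM. Its scores for CD8 T-like and NK-like markers were nearly equal, at 0.63 and 0.61. Eya4 and Dock1 also led a monocyte/macrophage-like cluster of 136 cells. Whether the 310 cells are T cells, NK cells or a mixture was not tested.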
